A study of Mus musculus with 8 samples.

Results

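The response of RAW 264.7 cells to 3 h of lipopolysaccharide (LPS) was read from 2 libraries, 1 unstimulated (0 h) and 1 taken after LPS, of the 8 libraries of the study. RAW 264.7, here RAW, is a macrophage-like line grown from a tumour of a mouse given Abelson leukaemia virus, and it was cultured in DMEM with 10% FBS. The other libraries were bone marrow-derived macrophages (BMDM), grown in L929-conditioned medium, with 2 libraries unstimulated and 2 after LPS, and cells labelled hMPDM, with 1 library per state. All were mouse polyadenylated RNA, and neither the dose of LPS nor the meaning of hMPDM is given in the sources used here. Of the 43346 genes in the table, 12461 had enough counts over the libraries to be tested. All 9485 of these with at least 5 CPM (counts scaled to library size with the TMM factors of edgeR) in the higher RAW library were compared between the RAW libraries. Genes among them are called measured. A gene below 5 CPM at rest is measured only through its LPS level. In lists of genes low at rest, shares and medians over measured members therefore lean to higher ones.

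LPS is the cell wall glycolipid of Gram-negative bacteria. It is handed by CD14 to a complex of TLR4 and MD-2 (Ly96) on the macrophage surface. The adaptor MyD88 passes the signal to NF-kB and the MAP kinases, which turn on cytokine, chemokine and feedback genes, and the adaptor TRIF (Ticam1) passes it to IRF3 and to interferon beta. Secreted interferon then acts back on the cells through its receptor, and this second step turns on the antiviral genes.

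The RAW libraries held 3116434 counts at rest and 4078496 after LPS, and the BMDM and hMPDM libraries between 5510319 and 19307312. A count of 0 in RAW allows a level of up to 0.784 CPM at rest and 0.642 CPM after LPS (3 counts, TMM-scaled). With 1 library a side the RAW difference has no replicate check and no test, so ratios carry exact 95% intervals. These hold counting error alone, and no molecular identifiers are named, so reads may be copies of one molecule. Of the 26 macrophage identity genes at 5 CPM or more, the lysozyme gene Lyz2 stood at 10908.5 CPM at rest and the CSF1 receptor gene Csf1r at 1617 CPM. No marker of neutrophils, B cells, T and NK cells, dendritic cells, fibroblasts, or erythroid and mast cells reached 5 CPM. Their 6 lists had summed levels between 0 and 4.49 CPM in each RAW library. Osteoclast markers differed: 6 of 9 reached 5 CPM, with summed levels of 341 CPM at rest and 309 CPM after LPS.

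After LPS RAW cells carried more RNA for cytokines, chemokines, NF-kB regulators and a few enzymes, while most other genes stood close to their resting level. The median log2 ratio of LPS over rest was 0.01, and 8269 genes (87.2%) were within 1.5-fold of their resting level. At least 4-fold higher were 78 of the 9485 genes (0.822%) and at least 4-fold lower was 1 (0.0105%), the mitochondrial carrier gene Slc25a35. At least 2-fold higher were 258 (2.72%) and at least 2-fold lower 115 (1.21%). Scaled by library size, the 2-fold counts became 229 higher and 191 lower, so that the share of higher genes was 54.5% in place of 69.2%. The rule chose these genes on the same counts, so their intervals are a description and no separate check. The counting interval of the ratio excluded 1 for 256 of the 258 higher genes and for all 115 lower genes. It lay above 2-fold for 158 of the 258 and for 77 of the 78. Only for 12 of the 115 did it lie wholly beyond 2-fold lower. Between the BMDM replicates, in deeper libraries, the 2-fold rule was met by 0 genes upward and 1 downward at rest (of 9605) and by 1 and 4 after LPS (of 9566). The 78 genes took 0.196% of all RAW counts at rest and 1.39% after LPS.

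**Figure D1:**
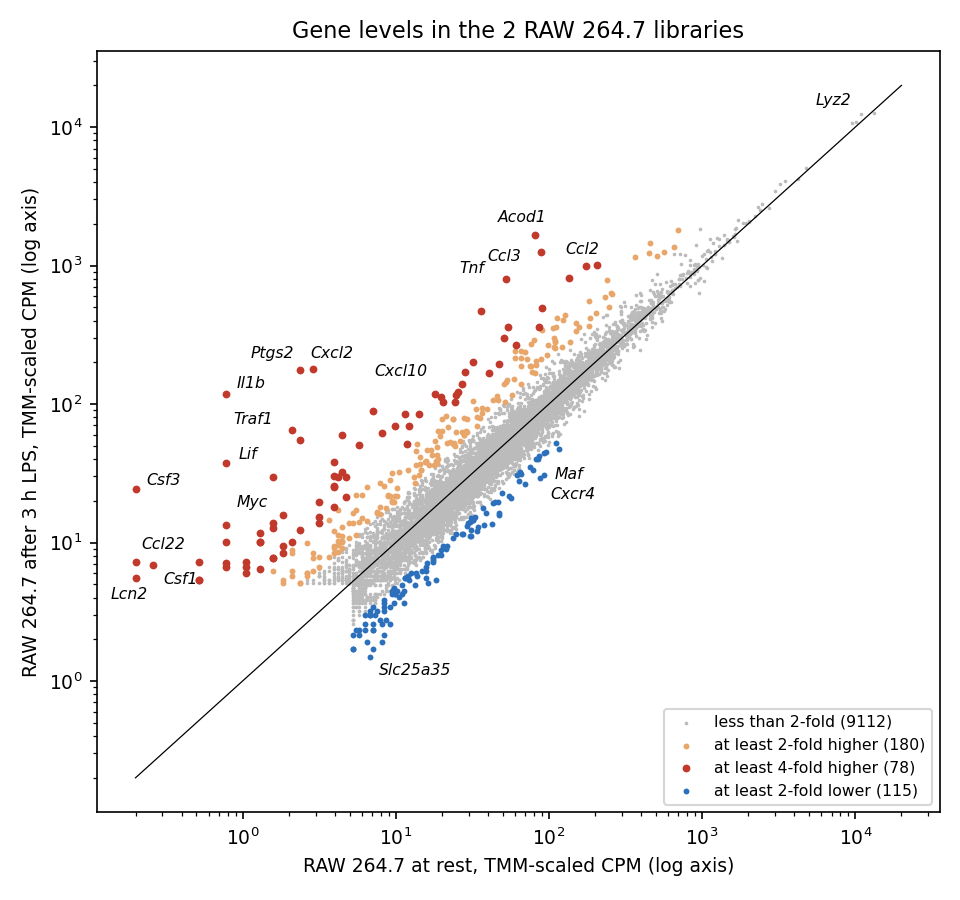
Level of each of the 9485 genes in RAW at rest (horizontal) and after 3 h LPS (vertical), in TMM-scaled CPM on log axes, 1 library a side. Genes without a count at rest are drawn at the left edge. Points far above the diagonal include the cytokine and chemokine genes Il1b, Cxcl2 and Tnf, and the lower genes stay within about 4-fold of it.

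The genes that were at least 4-fold higher were short. The 76 protein-coding genes among them had a median span of 8.22 kb, a median exonic length of 2.70 kb and a median of 5 exons. Over all protein-coding genes at 5 CPM or more these medians were 24.3 kb, 4.02 kb and 10 exons, and for the 2-fold lower genes 24.3 kb, 4.26 kb and 7.5 exons. Most started low, with a median of 3.92 CPM at rest against 41.1 CPM over all genes. The rule builds in part of this gap. A 4-fold higher gene needs 5 CPM only after LPS, while an unchanged gene needs about that level at rest. For 3 of the 78 no read was counted at rest (Csf3, Ccl22 and Lcn2), and 10 more had 1 to 3 counts.

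The genes of the receptor and its adaptors differed in both directions by small folds. Of the 26 measured members of the TLR4 list, 4 were at least 2-fold higher and 0 lower, against 2.72% of all genes higher, and the list median was 0.13 on the log2 scale. The co-receptor gene Cd14 stood at 506.5 CPM before LPS and 1172 CPM with it, a ratio of 2.31 (95% counting interval 2.20 to 2.44). The other members at least 2-fold higher were the kinase genes Irak2 (ratio 2.85) and Ikbke (2.77) and the interferon regulatory factor gene Irf7 (2.29). The receptor gene Tlr4 itself was lower, with 367 counts at rest and 277 after LPS, or 96.0 and 59.3 CPM (ratio 0.617, 0.526 to 0.724). The adaptor genes Myd88 and Ticam1 stood at log2 ratios of 0.89 and 0.72, and Ly96 at 11.5 and 16.5 CPM. Among the other Toll-like receptors Tlr2, the receptor for bacterial lipoproteins, went from 452 to 1229 CPM (ratio 2.72), and Tlr9, which senses bacterial DNA, from 51 to 126 counts (log2 ratio 1.00).

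All 11 genes for NF-kB subunits and their inhibitors were higher after LPS, 7 of them at least 2-fold and 2 at least 4-fold, with a list median of 1.28. The inhibitor genes ranged widely. Nfkbiz, an atypical nuclear inhibitor protein gene, went from 27 to 414 counts (7.06 to 88.6 CPM, ratio 12.5, 8.50 to 19.3). Nfkbia, which encodes the inhibitor that holds NF-kB in the cytoplasm, went from 329 to 1676 counts (86.0 to 358.5 CPM, ratio 4.17, 3.70 to 4.70). The other inhibitor genes had log2 ratios of 1.59 (Nfkbie), 1.29 (Nfkbid), 0.84 (Nfkbib) and 0.61 (Bcl3). The subunit genes had ratios of 3.27 for Nfkb1, 2.44 for Nfkb2, 2.03 for Relb, 1.73 for Rel and 1.41 for Rela. The start of Nfkbia is shown because it holds a match to the kappaB consensus, the DNA motif that NF-kB binds. These are the 250 bases before its start from RefSeq (GRCm38.p6, the mm10 build of the table), chr12:55492648-55492897, minus strand, with the match in capitals at bases -29 to -20 from the start.
Nfkbia: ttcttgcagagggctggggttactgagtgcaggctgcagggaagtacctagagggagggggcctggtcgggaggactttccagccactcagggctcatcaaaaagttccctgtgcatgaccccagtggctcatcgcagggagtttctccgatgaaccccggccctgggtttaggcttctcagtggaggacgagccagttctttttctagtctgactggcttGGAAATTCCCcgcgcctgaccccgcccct
Windows were matched for 8 of the 11 list genes, under 80%, so a comparison over the list is void; of those 8, 6 held a kappaB match on either strand. As a description of the windows, a match was held by 4.51% of all 32851 windows of this length, which reach from 250 bases before to 50 after a start, and by 6.11% of the 7581 measured genes with one.

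Of the 25 measured feedback regulators of NF-kB and MAP kinase signalling, 12 were at least 2-fold higher, 6 of them at least 4-fold, and 0 were lower. Traf1, a signalling adaptor of TNF receptors, had the largest ratio, with 8 counts at rest and 302 after LPS (2.09 to 64.6 CPM, ratio 30.9, 15.5 to 72.2). Socs3, an inhibitor of cytokine receptor signalling, went from 17 to 280 counts (4.45 to 59.9 CPM, ratio 13.5, 8.26 to 23.5). The ubiquitin-editing enzyme gene Tnfaip3 had a ratio of 4.81, the RNase genes Zc3h12c and Zc3h12a 6.59 and 5.60, and the ubiquitin ligase gene Peli1 a log2 ratio of 2.21. Socs1, the related inhibitor, had 3 counts at rest and 2 after LPS.

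Among 22 measured immediate early factors 7 were at least 2-fold higher, 6 of them at least 4-fold. Myc, a transcription factor of cell growth, had the largest log2 ratio of the list (2.99). It lies on chromosome 15 (61985341 to 61990374) and had 7 counts at rest and 74 after LPS (1.83 to 15.8 CPM, ratio 8.65, 3.99 to 22.3). Fosl1 and Maff, partners in AP-1 type dimers, had log2 ratios of 2.90 and 2.89. Fos and Jun themselves stood at log2 ratios of 0.50 and 0.08 at this time, and Atf3, a stress-induced repressor, went from 107 to 356 CPM (ratio 3.33).

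The ligands of the TNF and IL-1 families were among the genes with the largest ratios: of 7 measured members 6 were at least 2-fold and 4 at least 4-fold higher, with a list median of 2.33. Another 8 members stayed below 5 CPM, 4 of them with 0 counts in both libraries. Il1b (chromosome 2, 129364570 to 129371139) had 3 counts at rest and 551 after LPS, or 0.784 and 118 CPM, a ratio of 150.2 (51.1 to 731). Tnf (chromosome 17, 35199381 to 35202007) had 199 and 3720 counts, or 52.0 and 796 CPM, a ratio of 15.3 (13.3 to 17.7). Il1a, the neighbour of Il1b, had 15 and 178 counts (ratio 9.71, 5.73 to 17.7). Il1b was thus near silent before LPS, while Tnf RNA was already present at rest. The gene for the IL-1 receptor antagonist, Il1rn, was the most abundant of the list at rest, with 259 CPM, and had 623 CPM after LPS (ratio 2.41). Il18 did not differ by the rule (21 and 26 counts).

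Of the 11 measured interleukins and other cytokines 5 were at least 2-fold higher, 4 of them at least 4-fold. Another 14 of the 25 listed stayed below 5 CPM, 7 of them with 0 counts in both libraries. Csf3, the granulocyte growth factor, was not counted at rest and had 114 counts after LPS (24.4 CPM), 31.1-fold above a floor of 3 resting counts. Folds above this floor leave out the counting error of the LPS library, so they are not lower limits. Lif, a cytokine of the IL-6 family, had 3 and 175 counts (ratio 47.7, 16.1 to 234). Its neighbour Osm, of the same family, had 29 and 78 counts (ratio 2.20, 1.42 to 3.50). Il27 (4 and 34 counts, ratio 6.95, 2.48 to 27.0) and the macrophage growth factor gene Csf1 (1 and 32 counts, ratio 26.2, 4.37 to 1066) rest on few resting reads. Several cytokines that macrophages are known to make in response to LPS had at most 2 counts in either library: Il6 had 0 counts in both libraries, Il12b 2 and 0, Il10 1 and 1, and the interferon beta gene Ifnb1 0 and 1. In BMDM after LPS Il6 stood at 107 CPM and Il12b at 584 CPM, against the 0.642 CPM that a count of 0 allows in RAW.

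**Figure D2:**
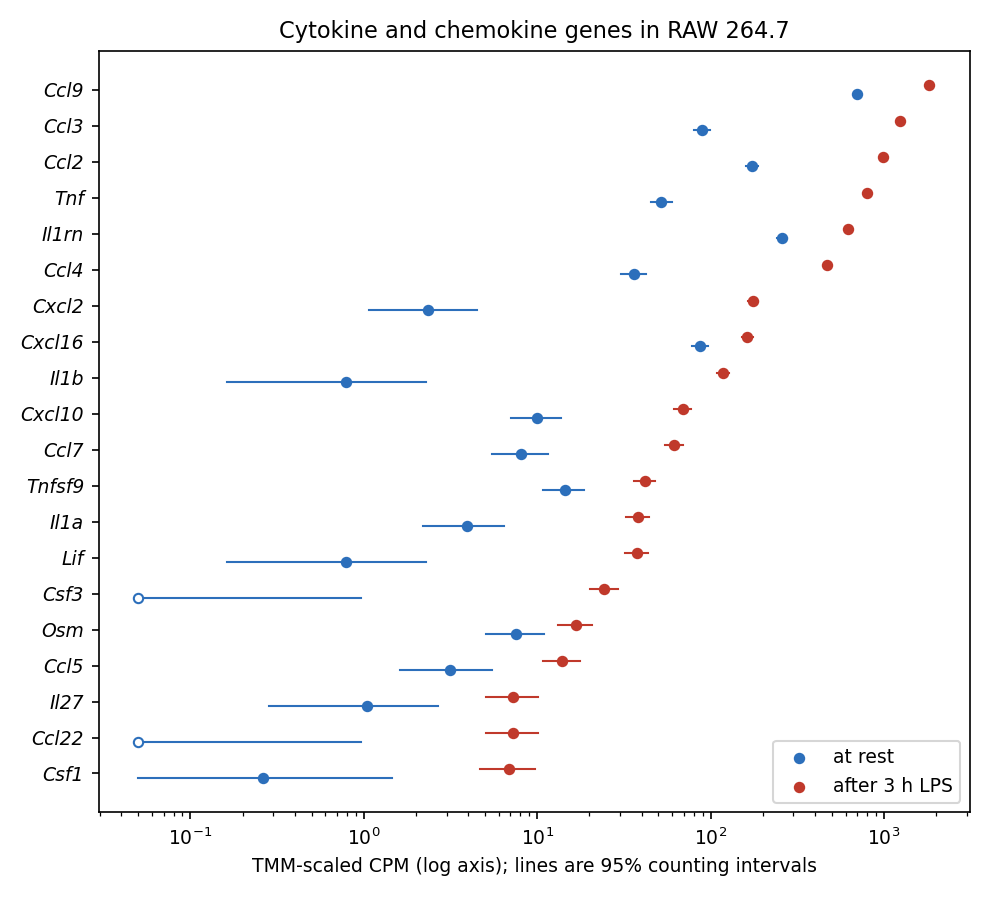
TMM-scaled CPM (log axis) of 20 cytokine and chemokine genes in RAW at rest (blue) and after 3 h LPS (red), 1 library a side, with 95% counting intervals as lines. Open circles at the left edge stand for 0 counts. For each gene the LPS value lies above the interval of the resting value, with Ccl9, Ccl3, Ccl2 and Tnf at the top.

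Chemokine genes were among the most abundant RNAs after LPS. Of 8 measured CC chemokines 7 were at least 2-fold and 6 at least 4-fold higher, with a list median of 2.70. Another 6 of the 14 listed stayed below 5 CPM, 4 of them with 0 counts in both libraries. Ccl3 (chromosome 11, 83647844 to 83649355), which draws monocytes and T cells, had 341 counts at rest and 5813 after LPS, or 89.2 and 1243 CPM (ratio 13.9, 12.5 to 15.6). Per kilobase of exon it was the ninth most abundant RNA of the library after LPS, at 1623 RPKM (TMM-scaled CPM per kilobase), from place 307 and 116 RPKM at rest. Ahead of it stood only genes that were abundant at rest, such as Lyz2, at 8617 and 9879 RPKM. Ccl4 had 138 and 2186 counts (log2 ratio 3.69), Ccl7 31 and 289 (ratio 7.63), and the monocyte attractant Ccl2 665 and 4611 (ratio 5.67, 5.23 to 6.16). Ccl9 was the most abundant of the list before and after, with 696 and 1806 CPM (ratio 2.59). Ccl22 was not counted at rest and had 34 counts after LPS, 9.27-fold above the floor of 3 resting counts. Higher genes lay side by side on chromosome 11: Ccl5, Ccl9, Ccl3 and Ccl4 within 83525778 to 83664683, where 4 of 5 measured genes were at least 2-fold higher, and Ccl2 beside Ccl7. The span was drawn from its first to its last higher gene, which raises that share. In such clusters of related genes, reads shared between near-identical copies cannot be told apart.

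Among the CXC chemokines Cxcl2 (chromosome 5, 90903899 to 90905909), which draws neutrophils, had 9 counts at rest and 820 after LPS, or 2.35 and 175 CPM (ratio 74.5, 39.1 to 164). Its neighbours and close relatives Cxcl1 and Cxcl3 had 0 counts in both libraries. In BMDM after LPS Cxcl1 stood at 78.1 CPM, against that limit of 0.642 CPM in RAW. The 250 bases before the starts of Cxcl2 (chr5:90903649-90903898, plus strand) and Cxcl1 (chr5:90890995-90891244, plus strand) are shown side by side because only the first of the pair was counted in RAW. Both hold the same 11 bases, in capitals, which are 2 overlapping kappaB matches, at bases -97 to -87 in Cxcl2 and -71 to -61 in Cxcl1.
Cxcl2: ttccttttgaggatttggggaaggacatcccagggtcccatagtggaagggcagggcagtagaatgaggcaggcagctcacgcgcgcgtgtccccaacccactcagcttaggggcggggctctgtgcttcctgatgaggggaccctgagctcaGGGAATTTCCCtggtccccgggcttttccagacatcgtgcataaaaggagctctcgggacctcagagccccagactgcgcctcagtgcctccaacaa
Cxcl1: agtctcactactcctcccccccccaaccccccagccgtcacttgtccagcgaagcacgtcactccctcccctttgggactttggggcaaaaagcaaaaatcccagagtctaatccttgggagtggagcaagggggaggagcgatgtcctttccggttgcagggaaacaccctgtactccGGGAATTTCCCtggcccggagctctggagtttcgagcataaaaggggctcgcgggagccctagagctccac
The same matches stood before a gene with 820 counts after LPS and before one with 0. What the matches do in these cells was not tested. Over the genes at least 4-fold higher, 14 of the 57 with a window (24.6%) held a kappaB match. Windows were matched for 57 of 78 genes, under 80%, so this share describes those genes and a comparison with other sets is void.

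Of 8 measured chemoattractant receptors 4 were at least 2-fold higher and 1 lower. Ccrl2, an atypical receptor for chemerin, went from 44 to 399 counts (ratio 7.42), and the formyl peptide receptor gene Fpr1 from 2 to 25 (ratio 10.2, 2.55 to 89.1). Cxcr4, the receptor for CXCL12, was lower, with 332 and 137 counts (86.8 and 29.3 CPM).

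Enzymes of the antibacterial and lipid mediator response were unequal. Acod1 (chromosome 14, 103046977 to 103056573), which makes the antibacterial metabolite itaconate, had 311 counts at rest and 7830 after LPS, or 81.3 and 1675 CPM (ratio 20.6, 18.4 to 23.1). Ptgs2 (chromosome 1, 150100031 to 150108227), the inducible prostaglandin synthase, had 11 and 842 counts, or 2.88 and 180 CPM (ratio 62.6, 34.8 to 126). Nos2, the inducible nitric oxide synthase that is a common readout of RAW cells, had only 2 and 13 counts (ratio 5.32, 1.20 to 48.5) and stayed below 5 CPM. Around it, the arginine transporter gene Slc7a2 had 5 and 47 counts (ratio 7.69, 3.07 to 24.8), Arg2 15 and 43, and Gch1, which makes a cofactor of nitric oxide synthase, 92 and 245. Of the 12 measured prostaglandin and leukotriene genes, Ptgs2, the prostaglandin E synthase gene Ptges (log2 ratio 1.17) and the receptor gene Ptger4 (1.08) were at least 2-fold higher, and the list median was -0.14. The antisense gene Ptgs2os2 beside Ptgs2 had 16 and 48 counts; whether the counting used strand is not stated, so its reads and those of an overlapping gene cannot be told apart.

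Of the oxidative genes, 0 of 6 measured NADPH oxidase subunits and 4 of 16 NRF2 targets and antioxidants were at least 2-fold higher. Over all genes this share was 2.72%. The oxidase gene Cybb stood at 972 and 1832 CPM. The 4 were the cystine transporter gene Slc7a11 (ratio 3.56), the mitochondrial superoxide dismutase gene Sod2 (2.25), the autophagy receptor gene Sqstm1 (2.23) and the metallothionein gene Mt2 (log2 ratio 1.00). In the inflammasome list Nlrp3, the sensor, went from 196 to 1407 counts (ratio 5.87, 5.05 to 6.85), while Casp1 had 362 and 468. Pycard, which encodes the inflammasome adaptor ASC, had 1 count at rest and 0 after LPS. RAW 264.7 is known as a line without ASC.

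Costimulatory genes were higher, while the MHC class II genes themselves were hardly counted. Of 7 measured members of this list 4 were at least 2-fold higher, with a median of 1.90: Cd40 (ratio 7.27, 4.39 to 12.8), Icosl (6.49), Cd83 (6.26) and the adhesion gene Icam1 (3.75). Another 10 of the 17 listed stayed below 5 CPM. H2-Aa had 2 counts in each library, H2-Ab1 3 and 1, and the class II transactivator gene Ciita 0 and 1. In the MHC class I list 0 of 13 genes reached 2-fold, where 2.72% of all genes were higher, and the median was 0.30. Of the 7 iron handling genes, Lcn2, which binds bacterial iron carriers, had 0 counts at rest and 26 after LPS, 7.09-fold above the floor of 3 resting counts. The transporter gene Slc11a2 was higher (ratio 2.71) and the iron exporter gene Slc40a1 lower (70.1 and 26.5 CPM, ratio 0.378).

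Interferon-induced antiviral genes were higher in number but small in size. Of the 35 measured, 34 were above their resting level, 13 at least 2-fold and 2 at least 4-fold, with a list median of 0.78. Ifit1 (chromosome 19, 34640871 to 34650009), an RNA-binding antiviral protein gene, had 16 counts at rest and 139 after LPS, or 4.18 and 29.7 CPM (ratio 7.11, 4.22 to 12.8). Oasl1 had 109 and 798 counts (ratio 5.99, 4.90 to 7.38), and Rsad2, the viperin gene, 60 and 177 (ratio 2.41, 1.79 to 3.29). Of the 14 interferon signalling genes the ubiquitin-like modifier gene Isg15 was the only one at least 4-fold higher, with 18 and 139 counts (log2 ratio 2.61). Irf1, a transcription factor of the interferon response, had a log2 ratio of 0.99. Cxcl10, the chemokine that responds to both NF-kB and interferon (chromosome 5, 92346638 to 92348889), had 38 and 323 counts, or 9.94 and 69.1 CPM (ratio 6.95, 4.96 to 10.0).

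The starts of Cxcl10 (chr5:92348890-92349139, minus strand), Ifit1 (chr19:34640639-34640888, plus strand) and Isg15 (chr4:156200819-156201068, minus strand) are shown because they carry the interferon motif, alone or beside kappaB. Capitals in Ifit1 and Isg15 mark matches to the ISRE core, GAAANNGAAA on either strand, which is bound by IRF and STAT complexes. In Cxcl10 the first capitals are an ISRE core at bases -213 to -204, and the others are kappaB matches at -159 to -150 and -103 to -94. The 3 ISRE cores of Isg15 overlap.
Cxcl10: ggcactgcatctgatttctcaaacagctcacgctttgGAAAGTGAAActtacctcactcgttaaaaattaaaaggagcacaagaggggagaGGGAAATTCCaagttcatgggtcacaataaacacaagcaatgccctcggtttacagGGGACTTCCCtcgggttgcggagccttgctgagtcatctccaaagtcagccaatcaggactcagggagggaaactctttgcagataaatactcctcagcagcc
Ifit1: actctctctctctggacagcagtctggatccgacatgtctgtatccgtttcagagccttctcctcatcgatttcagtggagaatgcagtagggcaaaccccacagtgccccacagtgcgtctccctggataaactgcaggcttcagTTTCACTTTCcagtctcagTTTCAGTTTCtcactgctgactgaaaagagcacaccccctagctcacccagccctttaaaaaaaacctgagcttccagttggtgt
Isg15: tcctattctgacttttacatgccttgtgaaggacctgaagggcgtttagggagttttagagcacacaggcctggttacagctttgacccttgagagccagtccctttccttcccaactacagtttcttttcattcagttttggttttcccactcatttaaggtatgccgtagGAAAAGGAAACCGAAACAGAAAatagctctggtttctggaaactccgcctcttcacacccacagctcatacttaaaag
Of the 28 antiviral list members with a window, 14 (50.0%) held an ISRE core, against 3.44% of all windows and 3.75% of those of measured genes.

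**Figure D3:**
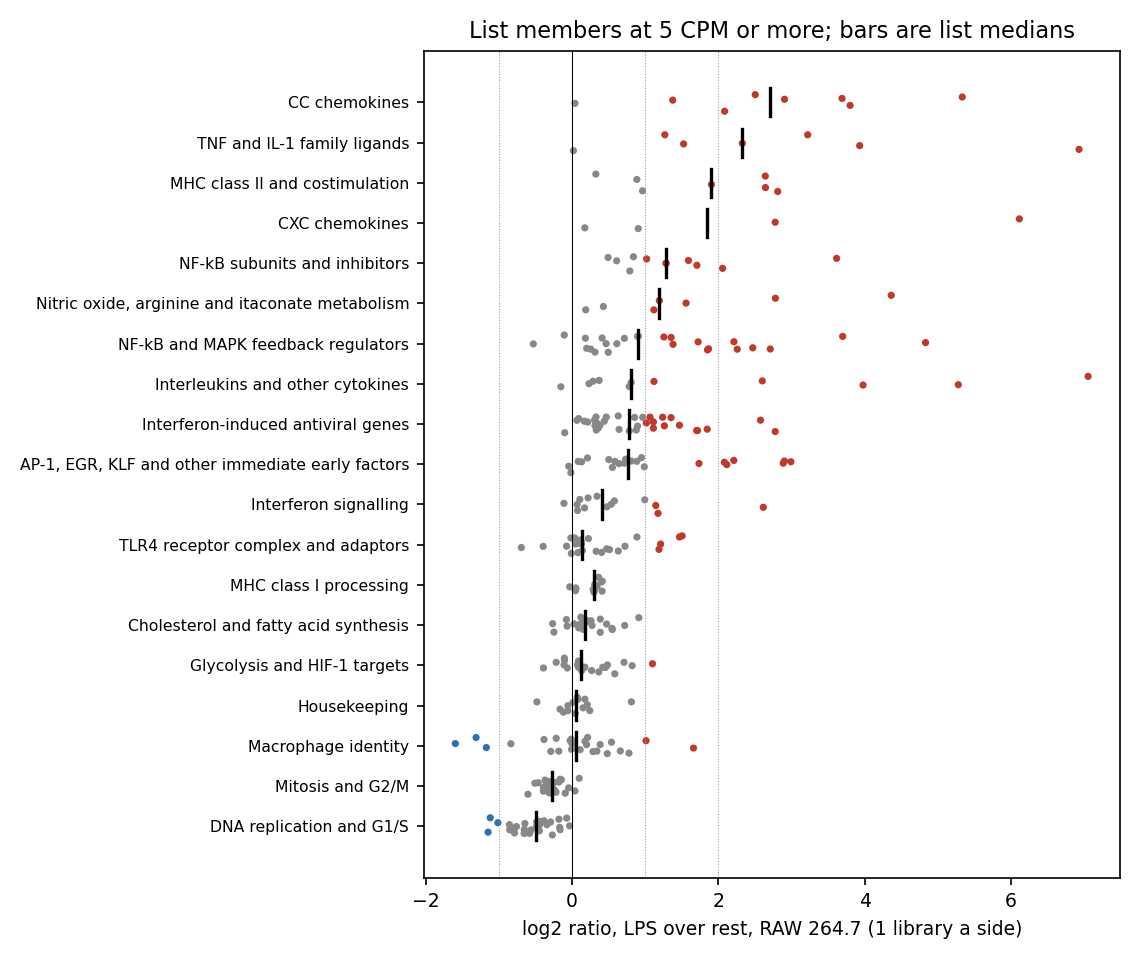
Log2 ratio of LPS over rest in RAW (horizontal, 1 library a side) of each list member at 5 CPM or more, 1 row per gene list, with the list median as a bar. Red points are at least 2-fold higher and blue at least 2-fold lower. The medians run from 2.70 for CC chemokines to -0.49 for DNA replication.

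Identity genes of the macrophage stood mostly close to rest. Of 26 measured, 2 were at least 2-fold higher and 3 lower, against 2.72% and 1.21% of all genes. The median was 0.05 (-0.04 scaled by library size, which turns its direction). The C-type lectin gene Clec4e went from 459 to 1450 CPM (ratio 3.16), and Clec7a, the beta-glucan receptor gene, from 37 to 92 counts. Lower members were the transcription factor gene Maf, with 355 and 143 counts (92.8 and 30.6 CPM, 3.03-fold lower, 2.49 to 3.71), and the efferocytosis receptor gene Mertk, with 82 and 44. Csf1r stood at 1617 and 1609 CPM. In RNA of a whole culture, a lower level from fewer expressing cells and one from less RNA per cell cannot be told apart.

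Genes of DNA replication were lower together, by small amounts. All 28 measured were below their resting level (median -0.49, against 0.01 over all genes), but only Cdc6, E2f2 and Ccne1 by at least 2-fold. Cdc6 (chromosome 11, 98907801 to 98923940), which loads the replicative helicase, had 164 and 90 counts (42.9 and 19.3 CPM, 2.23-fold lower, 1.71 to 2.91). The cyclin gene Ccne1 had 237 and 143 counts and the factor gene E2f2 111 and 62. Of 24 genes of mitosis 22 were below rest, with a median of -0.28, and 0 by 2-fold, against 1.21% of all genes. The proliferation marker Mki67 stood at 960 and 632 CPM.

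In several other lists 1 or 2 members passed the size rule, and in some 0 did. At least 2-fold higher were Cebpd, a factor of the acute phase (log2 ratio 1.74), and the glucose transporter gene Slc2a1 (ratio 2.14, 1 of 22 glycolysis genes). In the list named for the BCL2 family, Bcl2a1d (ratio 3.11) and the caspase-8 inhibitor gene Cflar (2.34) were. Cflar was placed in that list without being of the family. In the stress list Ppp1r15a (ratio 3.90) and Herpud1 (log2 ratio 1.34) were. Of 21 cholesterol and fatty acid genes, 7 heat shock genes and 14 housekeeping genes 0 reached 2-fold in either direction. Over all genes 2.72% were higher and 1.21% lower by this size. Counts of 0 or 1 in lists this short are near those shares and set no list apart. Among the 25 genes with the largest ratios were also the niacin receptor gene Hcar2 (9 and 258 counts, ratio 23.4), the transcription factor gene Pou2f2 (6 and 138, ratio 18.8), the amino acid oxidase gene Il4i1 (3 and 63, ratio 17.2, 5.62 to 85.5) and the oxidized LDL receptor gene Olr1 (3 and 47, ratio 12.8, 4.13 to 64.4). The lowest, Slc25a35, had 26 counts at rest and 7 after LPS, a drop of 4.54-fold (1.92 to 12.4), followed by Zfand4 (31 and 9) and Nova1 (27 and 8).

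Set beside the other macrophages, the genes higher in RAW were mostly also higher there, with larger medians. Of the 78 genes, 66 were at least 2-fold higher in BMDM, 68 in hMPDM and 64 in both, with medians of 2.72 in RAW, 3.53 in BMDM and 3.31 in hMPDM. Since the rule chose these genes on RAW values, these counts are a description. In BMDM 974 of 9845 genes were at least 2-fold higher by that rule, and the share over all genes in hMPDM is not given here. At 4-fold, 472 of the 9845 were higher and 95 lower in BMDM, against 78 and 1 in RAW. The difference of the LPS responses, RAW minus BMDM, was tested with edgeR's quasi-likelihood test, which takes the spread of the BMDM pairs for the single RAW libraries too. After Benjamini-Hochberg adjustment at 0.05 the response was larger (more positive) in RAW for 1246 of 12461 genes (10.0%) and smaller for 1586 (12.7%). Scaled by library size these counts were 3048 and 987, so that the share of larger ones was 75.5% in place of 44.0%. Among the 78 genes, with TMM scaling, 34 were called smaller and 11 larger in RAW. Separate cultures are not named for the BMDM replicates in the labels, so the p-values rest on a spread between samples that may be technical only.

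Interferon-induced genes responded less in RAW than in BMDM. All 40 tested members of the antiviral list were called smaller in RAW and 0 larger, with a median difference of -2.88, also when scaled by library size (40 called, median -2.61) and by the DESeq2 Wald test (40 called). The list's median log2 ratio was 0.78 in RAW and 3.58 in BMDM. Rsad2 went from 15.7 to 37.9 CPM in RAW and from 26.4 ± 2.90 to 10765 ± 560 CPM (SD, n = 2) in BMDM (difference -7.39, SE 0.386, edgeR adjusted p = 2.99e-15). Ccl5, a chemokine gene shared by both programs, went from 3.14 to 13.9 CPM in RAW and from 1.59 ± 0.219 to 1437 ± 0.654 CPM in BMDM (difference -7.65, SE 0.732, edgeR adjusted p = 1.45e-09). Cxcl10 reached 7209 ± 103 CPM in BMDM, where RAW had 69.1 CPM (difference -7.24, SE 0.412). Levels at rest were of the same order in both cells for these genes, and the LPS levels set them apart. All 13 MHC class I genes, 9 of 13 guanylate-binding and immunity-related GTPase genes and 9 of 10 Ifi200 genes were also called smaller.

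**Figure D4:**
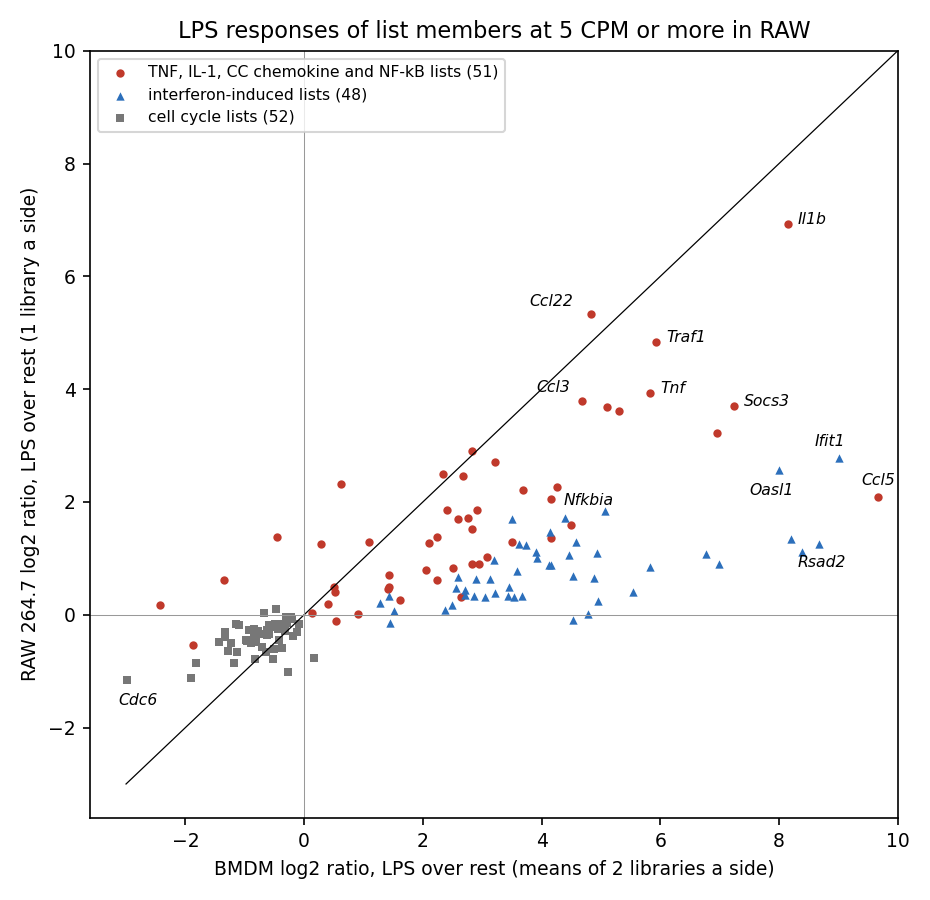
Log2 ratio of LPS over rest in BMDM (horizontal, from the means of 2 libraries a side) and in RAW (vertical, 1 library a side) for list members at 5 CPM or more in RAW, with the diagonal of equal responses. Triangles of the interferon-induced lists all lie below the diagonal, squares mark cell cycle genes, and circles of the TNF, IL-1, CC chemokine and NF-kB lists lie on both sides of it, with Ccl5 farthest below.

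Of the NF-kB subunits and inhibitors 10 of 11 were called smaller in RAW, with a median difference of -1.66 (-1.40 scaled by library size). Nfkbia differed by -2.10 (SE 0.113, edgeR adjusted p = 5.65e-15), Tnfaip3 by -2.0 and Socs3 by -3.53. Tnf had like levels at rest, 52.0 CPM in RAW and 48.7 ± 1.70 CPM in BMDM, but 796 and 2781 ± 89.0 CPM after LPS (difference -1.90, SE 0.138, edgeR adjusted p = 4.46e-12). Acod1 reached 1675 CPM in RAW and 7649 ± 7.34 CPM in BMDM (difference -3.36, SE 0.129). For other leading genes no difference was detectable: Il1b (-1.07, SE 0.944, edgeR adjusted p = 0.494), Cxcl2 (-0.68, SE 0.541, edgeR adjusted p = 0.435), Ptgs2 (-0.12, SE 0.455, edgeR adjusted p = 0.943) and Ccl2 (0.16, SE 0.0799, edgeR adjusted p = 0.180). The wide errors of Il1b, Cxcl2 and Ptgs2 go with their 3 to 11 resting counts in RAW, and a p above the threshold does not show that the responses were alike.

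For other genes the response was more positive in RAW. Myc was higher after LPS in RAW, from 1.83 to 15.8 CPM, and lower in BMDM, from 50.1 ± 2.91 to 8.70 ± 0.988 CPM (difference 5.60, SE 0.405, edgeR adjusted p = 4.33e-12). After LPS the level in RAW was thus above that in both BMDM libraries, and before LPS below both. Gadd45a, a growth arrest gene, also went opposite ways (5.23 to 16.3 CPM in RAW, 38.7 ± 2.33 to 15.4 ± 1.15 CPM in BMDM, difference 2.99). The list counts that follow stand beside 10.0% of all 12461 genes called larger and 12.7% called smaller. Of 29 tested immediate early factors 11 were called larger and 6 smaller. Of 13 circadian and ID factors the counts were 8 and 1, and of 19 genes of MYC and ribosome biogenesis 10 and 4. By the DESeq2 Wald test the larger calls were 6, 3 and 5. That test called fewer genes larger in all, 402 against 1246 by edgeR. The cell cycle lists had 11 of 28 replication and 15 of 24 mitosis genes called larger, meaning a smaller drop in RAW, with list medians of -0.49 and -0.28 in RAW and -0.74 and -0.61 in BMDM. With DESeq2 in place of edgeR these counts were 3 and 5. Of 23 tested cholesterol and fatty acid genes 14 were called larger and 0 smaller, with medians of 0.17 in RAW and -0.22 in BMDM, and the count was 21 scaled by library size.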

How the data were processed

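Gene levels in the RAW libraries and in 6 comparison libraries were taken from a table of raw read counts per gene that the authors deposited. Tools in the submitters' processing notes are STAR, featureCounts, cutadapt, bedtools and SAMtools (versions not given there), on the mm10 build. Whether counting used strand is not given in the sources used here. Of 10 value columns 8 matched a sample and were used, and 2 were not. Symbols were found for 42462 identifiers, and spans and exon numbers came from GENCODE M21. No mitochondrial gene had a count in any library.

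Libraries were scaled by TMM and genes kept by filterByExpr in edgeR 4.0.16 (R 4.3.3). RAW log2 ratios used a prior count of 2. The size rule asked for at least 5 CPM in the higher RAW library and a log2 ratio of at least 2 or 1 in size. Ratios and their exact conditional 95% intervals came from counts, with a floor of 3 counts. The difference of responses was fitted with 1 coefficient per group over all 8 libraries (2 residual degrees of freedom, from the BMDM pairs), after tests on simulated data. Its SE is the estimate divided by the square root of the F statistic. Named genes are members of 44 lists, the 25 largest and 15 smallest RAW ratios, and the 10 largest called differences each way. The comparison, the lists and the rules were chosen with earlier results of these data known. Promoter windows came from RefSeq (GRCm38.p6). Alternatives varied scaling, prior count, minimum level, filter, tool, replicate block and BMDM replicates. DESeq2 was version 1.42.0. Some genes that meet these rules are not reported here.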

Additional observations from a re-analysis of the deposited data

Results flagged for a closer look

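The LPS response differed between RAW and BMDM, by the edgeR quasi-likelihood test of the difference itself, for 1246 genes with a larger and 1586 with a smaller response in RAW. The named genes were taken for the size of this difference, which is given as RAW minus BMDM on the log2 scale. Among those larger in RAW were Lcn2, an iron-binding antibacterial protein gene (6.33), Myc (5.60), the repressor gene Bcl6b (5.18), Ceacam19 (4.77), Gfod1 (3.39), the oxysterol receptor gene Gpr183 (3.28), Id1 (3.03), Tfap4 (3.01) and Gadd45a (2.99). Of these, Id1, Tfap4 and Gpr183 were not higher after LPS in RAW (log2 ratios -0.19, -0.58 and -0.36) but lower in BMDM (-3.18, -3.14 and -3.51). Ceacam19 stood close to its resting level in RAW (log2 ratio 0.18). The fitted values of Lcn2, with 0 counts in RAW at rest, and of Ceacam19, with 0 CPM in BMDM after LPS, depend on how a 0 is treated, and both calls, like that for Gfod1, ended with the DESeq2 test.

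Smaller in RAW were Ccl5 (-7.65), Gbp2b (-7.45), Rsad2 (-7.39), Cmpk2 (-7.26), Cxcl10 (-7.24), Ifi213 (-6.96), Ifit2 (-6.86), the acute phase gene Saa3 (-6.63), Ifit1 (-6.20) and Mx2 (-6.15). Most of them are interferon-induced. Ifi213 belongs to a family of near-identical genes between which reads can be split, and stood at 17 and 22.5 CPM in RAW and at 0.0541 and 11.1 CPM in BMDM. Among the genes described for their role, Acod1 (-3.36), Socs3 (-3.53), Nfkbia (-2.10), Tnfaip3 (-2.0) and Tnf (-1.90) also had a smaller response.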

How the results depend on the processing

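Counts by size moved most with the scaling and the minimum level. Scaled by library size, which shifts RAW log2 ratios by -0.10 and those of BMDM by -0.37, 7 genes were at least 4-fold lower and 191 at least 2-fold lower, and the difference of responses gave 3048 larger and 987 smaller. The 4-fold lower count was 3 with TMM over the RAW libraries alone, 3 with a prior count of 0.5, 0 with a prior count of 5 and 0 with a minimum of 10 CPM. With a minimum of 1 CPM, 124 genes were at least 4-fold higher, 41 lower, 436 at least 2-fold higher and 369 lower. The 78 genes kept their 4-fold size in full with DESeq2 size factors and 73 of them with library sizes. The DESeq2 Wald test called 402 larger and 956 smaller. With the replicate block 1289 were larger and 1576 smaller. The deviations of same-numbered BMDM libraries correlated at -0.03. With 2 libraries per state this cannot show whether same-numbered libraries were paired, and crossed pairs were not fitted. Without 1 BMDM library at a time the counts ran from 1176 to 1233 and from 1563 to 1727. The difference for Ptgs2, which was not called, turned to 0.15 scaled by library size and ran from -0.45 to 0.10 without 1 BMDM library at a time. The calls for Lcn2, Ceacam19 and Gfod1 ended with the DESeq2 test, that for Lcn2 also without a filter and without BMDM LPS replicate 2, and that for Ceacam19 also without BMDM unstimulated replicate 2 or either LPS replicate. Of 38 list medians 6 changed sign with library sizes. The causes were not tested. The depth of 3116434 and 4078496 counts limits what can be said of genes under 5 CPM, Nos2 and Il12b among them.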

Other observations

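Genes at least 2-fold higher in RAW lay beside each other in 26 groups with gaps of at most 100 kb. Each span was drawn from its first to its last higher gene, which raises the shares given for it. Whether 26 groups are more than scattered genes would give was not tested. Besides the chemokine clusters these were, among others, Slfn5, Slfn8 and Slfn2 on chromosome 11 (3 of 5 measured genes of the span), Ltb, Tnf and Atp6v1g2 on chromosome 17 (3 of 4), Osm and Lif, Rsad2 and Cmpk2, and Ifit2 and Ifit1 (2 of 2 each). The genes Arc (12 and 37 counts) and Sgk1 (72 and 38 counts) moved in opposite directions by at least 2-fold in RAW and BMDM, Arc higher and Sgk1 lower in RAW. Arc was at most 0.777 CPM in the BMDM libraries, so its ratio there rests on few reads.

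The counts of further lists are given beside the 2.72% of all 9485 genes that were at least 2-fold higher and the 1.21% that were lower. Of 16 measured surface genes 5 were at least 2-fold higher. Of 13 genes of the D cyclin, CDK inhibitor and p53 list 2 were higher, Gadd45b (log2 ratio 2.57) and Gadd45a (20 and 76 counts). Of 15 complement, scavenger and lipid genes only Saa3 was (76 and 528 counts), and of 6 osteoclast markers only the protease gene Mmp9 (2.47). Of 19 genes of MYC and ribosome biogenesis only Myc itself was, with a list median of 0.13. Of 10 noncoding RNAs 2 were higher, Mir22hg (1.58) and Ptgs2os2 (1.26), and 1 was lower, Xist (-1.33). Of 12 circadian and ID factors Cebpd was higher and the clock output gene Dbp lower (-1.23).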
